A study of Mus musculus with 6 samples.

Results

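The genes described here are 10 histone methyltransferase genes and partners of the *Kmt2* group in the medial prefrontal cortex (mPFC) of the mouse: *Kmt2a*, *Kmt2b*, *Kmt2c*, *Kmt2d*, *Kmt2e*, *Setd1a*, *Setd1b*, *Setd5*, *Ash1l* and *Men1*. They were picked by gene name from the 18254 genes of the deposited table, and all 10 were among the 16714 that were tested, for which the mean over the libraries reached 5 normalized counts. The choice was made with the genotype difference of these libraries, and the difference of the libraries TG-3 and WT-3 from the rest, already in view, so the values of the 10 genes are given as a description and without a test. *Shank3* transgenic (TG) mice carry an EGFP-*Shank3* transgene that overexpresses the postsynaptic scaffold protein Shank3, and they were compared with wild-type (WT) mice. All mice were males of 10 to 12 weeks in the C57BL/6J background, and the promoter of the transgene is not given in the sources used here. The 6 libraries are named TG-1, TG-2, TG-3, WT-1, WT-2 and WT-3, with 3 for each genotype. A library holds the mPFC RNA of a pair of mice pooled together, so that a replicate is a pool.

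Most of these genes encode SET domain proteins, the enzymes that place methyl groups on lysines of histone tails. Kmt2a, Kmt2b, Kmt2c, Kmt2d, Setd1a and Setd1b methylate lysine 4 of histone H3 (H3K4), a mark of active promoters and enhancers, and they work inside COMPASS complexes that share the core subunits Wdr5, Rbbp5, Ash2l and Dpy30. Ash1l methylates lysine 36 of histone H3 (H3K36), Kmt2e and Setd5 are SET domain proteins whose catalytic activity is debated, and menin, the product of *Men1*, tethers Kmt2a and Kmt2b to chromatin. In humans, loss of 1 copy of several of these genes causes neurodevelopmental disorders, among them Wiedemann-Steiner syndrome for *KMT2A* and Kabuki syndrome for *KMT2D*.

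The *Shank3* transgene was seen in the labelled libraries, with normalized *Shank3* counts of 17470, 19003 and 16310 for the transgenic pools against 8374, 8173 and 6791 for the WT pools. In these values, which are estimated read counts divided by size factors, the libraries summed to between 28363967 and 29447717. The labelled tissue carried its defining markers, since all 6 cortical excitatory neuron markers were detected in every library and summed to between 155445 and 187618 normalized counts. TG-3 and WT-3 stood apart from the other 4 libraries. A limma term for replicate number 3 beside genotype had an adjusted p-value under 0.05 for 2344 of the 16714 genes, a number that fell to 222 without WT-3, 507 without TG-3 and 1401 without TG-1. Every gene is therefore also compared within libraries of the same number, whose numbers pair the samples as described in the processing of the data.

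The catalytic SET domain of the 6 H3K4 methyltransferases lies near the end of the protein. The last 60 coding bases before the stop codon, whose place relative to the domain was not mapped, show how the genes form close pairs. They were read from the GENCODE M21 transcripts (GRCm38), lie within 1 exon in each gene, and are written 5′ to 3′ on the coding strand. Capitals mark the 21 bases that are identical in all 6 genes.
Kmt2a (chr9:44807905-44807964, minus strand): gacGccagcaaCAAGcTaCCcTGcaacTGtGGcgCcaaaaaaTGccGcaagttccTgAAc
Kmt2b (chr7:30569164-30569223, minus strand): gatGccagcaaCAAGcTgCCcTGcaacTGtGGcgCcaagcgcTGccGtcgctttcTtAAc
Kmt2c (chr5:25273669-25273728, minus strand): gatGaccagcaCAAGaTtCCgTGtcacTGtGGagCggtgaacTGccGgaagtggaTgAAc
Kmt2d (chr15:98834503-98834562, minus strand): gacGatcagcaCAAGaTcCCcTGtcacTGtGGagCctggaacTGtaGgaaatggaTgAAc
Setd1a (chr7:127799417-127799476, plus strand): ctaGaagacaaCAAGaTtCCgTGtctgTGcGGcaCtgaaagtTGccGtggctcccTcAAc
Setd1b (chr5:123165944-123166003, plus strand): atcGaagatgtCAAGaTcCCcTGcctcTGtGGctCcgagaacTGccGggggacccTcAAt

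Within the pairs, *Kmt2c* and *Kmt2d* shared 50 of these 60 bases, *Kmt2a* and *Kmt2b* 48, and *Setd1a* and *Setd1b* 41, whereas genes of different pairs shared 30 to 39. Over whole transcripts the genes were nearly free of shared sequence. Of the 16781 stretches of 31 bases in the transcripts of *Kmt2a*, 1 occurred in a transcript of another gene (0.00596%), and for 8 of the other genes the share was between 0 and 2.42%. *Setd1a* was the exception with 51.8%, because it overlaps the protein-coding gene *Gm49388* on the same strand over 3523 exon bases. *Gm49388* had no row in the table used here, so the values of *Setd1a* are uncertain. On the opposite strand, exons of *Kmt2e* overlap *Srpk2* over 972 bases, exons of *Ash1l* overlap *Dap3* over 352 and exons of *Kmt2a* overlap an annotated antisense RNA over 378. Exons of *Kmt2c* overlap *Gm42585* there over 274 bases, and exons of *Setd1a* overlap *9430064I24Rik* over 29. The library kit keeps the strand, but the strand setting of the quantification is not given in the sources used here.

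The 10 genes lie on 7 chromosomes and have long transcripts. The longest annotated transcript of the 10 genes had a median of 8663 bases against 3254 for all tested genes, and 9 of the 10 were above that median. *Kmt2d* (ENSMUSG00000048154, chr15:98831669-98871204) has the longest with 19823 bases and *Men1* (ENSMUSG00000024947, chr19:6334979-6340891) the shortest with 3002. *Kmt2d* is on the same chromosome as the endogenous *Shank3* gene, 9.27 Mb away from it.

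Levels between the genes were compared as normalized counts per kb of the longest transcript. In WT mPFC the order ran from *Setd5* with 611 ± 41.4 per kb (SD, n = 3) through *Kmt2e* with 587 ± 70.2, *Men1* with 538 ± 39.8, *Ash1l* with 465 ± 65.1 and *Kmt2a* with 396 ± 50.8. It continued with *Setd1a* at 327 ± 8.52 per kb, *Kmt2b* at 293 ± 3.34, *Kmt2d* at 261 ± 58.7, *Kmt2c* at 242 ± 31.6 and *Setd1b* at 177 ± 27.4. Neighbours in this order had overlapping WT values, except *Kmt2a* and *Setd1a*, *Setd1a* and *Kmt2b*, and *Kmt2c* and *Setd1b*. The 10 genes stood between the 53.6th and the 82.6th percentile of all tested genes. The order depends on the length used: per kb of all annotated exons, *Setd5* moved from rank 1 to rank 8 with 225 ± 15.3, and *Men1* came first with 421 ± 31.1.

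**Figure D1:**
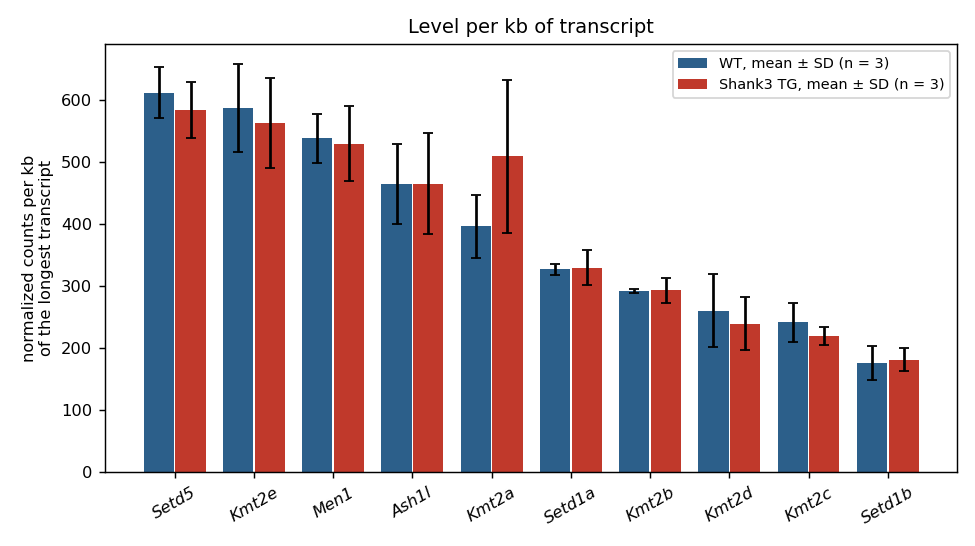
Level of each gene as normalized counts per kb of its longest transcript (y axis), with bars at the mean of 3 libraries and error bars of 1 SD for WT (blue) and *Shank3* TG (red). *Setd5* is highest and *Setd1b* lowest in WT, and *Kmt2a* has the widest gap between the genotypes, with 396 in WT and 509 in *Shank3* TG.

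*Kmt2a* had the largest genotype difference among the 10 genes with all 6 libraries, though not without TG-3, when *Kmt2c* (-0.18) and *Kmt2e* (-0.16) differed by more than its 0.15. It encodes the methyltransferase also known as Mll1, which keeps *Hox* and neuronal genes active (ENSMUSG00000002028, chr9:44803355-44881296). *Kmt2a* had 7313, 7119 and 10723 normalized counts in TG-1, TG-2 and TG-3 and 6088, 5996 and 7488 in WT-1, WT-2 and WT-3. Each *Shank3* TG library was above the WT library of the same number, but the genotypes overlapped because WT-3 was above TG-1 and TG-2. The mean of the *Shank3* TG libraries was 8385 ± 2027 (SD, n = 3) and that of the WT libraries 6524 ± 836, a ratio of 1.29, and the difference of log2(normalized count + 1) was 0.34 with a standard error of 0.17. Within the pairs the ratio was 1.20, 1.19 and 1.43, the last from TG-3 and WT-3. With the libraries numbered 1 and 2 alone the log2 difference was 0.26 and the genotypes did not overlap. Of all tested genes, 4.88% had a log2 difference at least as high as that of *Kmt2a*. In bulk tissue, fewer cells of a type and less RNA per cell cannot be told apart, which holds for every level given here.

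The paralog *Kmt2b* was nearly level between the genotypes. *Kmt2b*, which methylates H3K4 at promoters (ENSMUSG00000006307, chr7:30568858-30588726), stood at 2449, 2332 and 2665 normalized counts across the *Shank3* TG libraries, against 2451, 2507 and 2477 in the WT libraries. TG-2 was the lowest and TG-3 the highest library, with all WT libraries between them, and the log2 difference was 0.00 with a standard error of 0.07. The ratio of *Kmt2a* to *Kmt2b* per kb was 1.54, 1.57 and 2.07 in *Shank3* TG and 1.28, 1.23 and 1.55 in WT. In each pair of libraries it was higher in *Shank3* TG, while the ratio of WT-3 lay between those of TG-1 and TG-2. *Men1*, whose product menin binds both proteins, stood at 1479, 1493 and 1798 normalized counts across the *Shank3* TG libraries, against 1534, 1558 and 1752 in the WT libraries, a log2 difference of -0.03 with a standard error of 0.10. The genotypes overlapped, and in both of them library 3 was the highest.

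*Kmt2c* and *Kmt2d* encode the methyltransferases that place single methyl groups on H3K4 at enhancers. *Kmt2c* (ENSMUSG00000038056, chr5:25271798-25498783) stood at 3074, 3300 and 3488 normalized counts across the *Shank3* TG libraries, against 3320, 3376 and 4166 in the WT libraries. It was lower in *Shank3* TG in each of the 3 pairs, by -0.11, -0.03 and -0.26 on the log2 scale, but TG-3 was above WT-1 and WT-2 and the genotypes overlapped. The means were 3287 ± 207 for *Shank3* TG and 3621 ± 473 for WT (SD, n = 3), giving a log2 difference of -0.13 with a standard error of 0.10. Without WT-3 the log2 difference was -0.03. *Kmt2d* stood at 4922, 5488 and 3834 normalized counts across the *Shank3* TG libraries, against 5762, 5912 and 3827 in the WT libraries. TG-3 and WT-3 were nearly equal and far below the other 4 libraries, while TG-1 and TG-2 were below WT-1 and WT-2. The log2 difference of *Kmt2d* was -0.11 with a standard error of 0.19, and it went from -0.31 without WT-3 to 0.04 without TG-3. The ratio of *Kmt2c* to *Kmt2d* per kb was between 0.756 and 0.827 in the libraries numbered 1 and 2, against 1.21 in TG-3 and 1.44 in WT-3. By this ratio TG-3 and WT-3 lay apart from the other libraries. Within numbers 1 and 2 it was higher in *Shank3* TG (0.827 and 0.796) than in WT (0.763 and 0.756), whereas TG-3 was below WT-3.

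*Setd1a* and *Setd1b* encode the methyltransferases responsible for much of the trimethylated H3K4 at promoters. *Setd1a* (ENSMUSG00000042308, chr7:127776670-127800122) stood at 1961, 2144 and 2317 normalized counts across the *Shank3* TG libraries, against 2078, 2184 and 2105 in the WT libraries. All WT libraries lay between TG-1 and TG-3, and the log2 difference was 0.01 with a standard error of 0.08. *Setd1b* (ENSMUSG00000038384, chr5:123142193-123168629) stood at 1777, 1602 and 1446 normalized counts across the *Shank3* TG libraries, against 1289, 1674 and 1738 in the WT libraries. WT-1 was the lowest library and TG-1 the highest, so that the pairs gave log2 differences of 0.46, -0.06 and -0.27 around a fitted value of 0.04 with a standard error of 0.13. The ratio of *Setd1a* to *Setd1b* per kb was 1.84 ± 0.341 in *Shank3* TG and 1.88 ± 0.286 in WT.

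The SET domain genes outside the H3K4 complexes had genotype differences between -0.07 and -0.00 on the log2 scale. *Kmt2e* (ENSMUSG00000029004, chr5:23434441-23504235), whose protein binds trimethylated H3K4 through its PHD finger, stood at 3851, 3778 and 4724 normalized counts across the *Shank3* TG libraries, against 3830, 4208 and 4846 in the WT libraries. Library 3 was the highest in both genotypes, and the log2 difference between the genotypes was -0.06 with a standard error of 0.12. *Setd5* (ENSMUSG00000034269, chr6:113077365-113153435), a gene linked to intellectual disability in humans, stood at 3724, 3812 and 4295 normalized counts across the *Shank3* TG libraries, against 3882, 4433 and 4076 in the WT libraries. TG-3 lay between WT-3 and WT-2, and the log2 difference was -0.07 with a standard error of 0.09. *Ash1l* (ENSMUSG00000028053, chr3:88950622-89079375), the H3K36 methyltransferase of the group and an autism risk gene in humans, stood at 5587, 4397 and 6258 normalized counts across the *Shank3* TG libraries, against 4844, 5113 and 6271 in the WT libraries. TG-2 was the lowest library, TG-3 and WT-3 were nearly equal and highest, and the log2 difference was -0.00 with a standard error of 0.15.

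**Figure D2:**
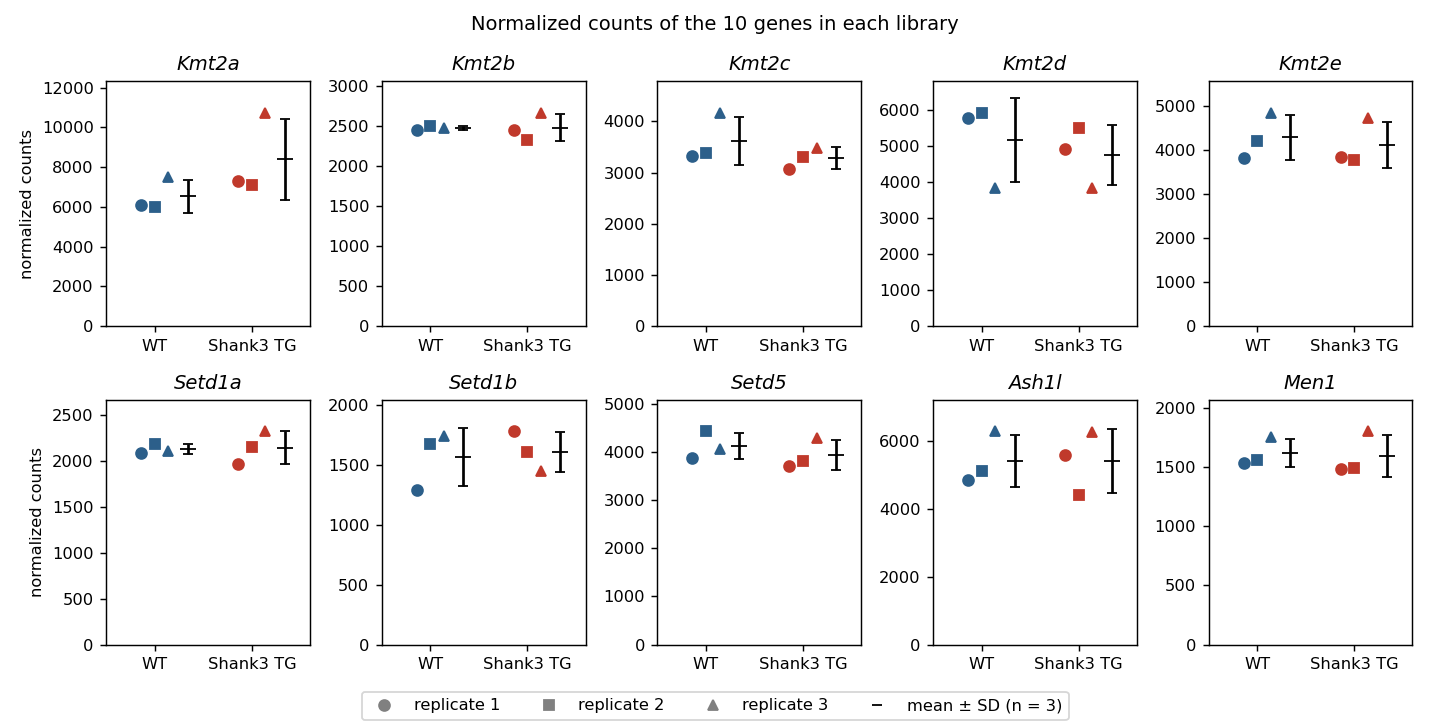
Normalized counts (y axes, from 0) of the 10 genes in each library, in blue for WT and red for *Shank3* TG, with the symbol giving the replicate number and the black bar the mean ± 1 SD (n = 3). For *Kmt2a*, TG-3 with 10723 lies above all other libraries, and for *Kmt2d* the libraries numbered 3 lie lowest in both genotypes, with 3834 and 3827.

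Of the 10 genes, 4 had a log2 difference above 0 and 6 below, and 9 lay within 0.15 of 0. Their median was -0.02 and that of all tested genes -0.00. With 1 library left out, the number above 0 ran from 1 without WT-1 to 6 without TG-2 or WT-3, and the median from -0.085 without TG-3 to 0.016 without WT-3. The genotypes did not overlap for 0 of the 10, against 6.02% of all tested genes in either direction. The 3 pairs moved the same way for 2 of the 10, *Kmt2a* and *Kmt2c*, against 24.8% of all tested genes. With the libraries numbered 1 and 2 alone, the genotypes did not overlap for 6 of the 10, against 26.1% of all tested genes. *Kmt2a* was higher in *Shank3* TG there, and *Kmt2b*, *Kmt2c*, *Kmt2d*, *Setd5* and *Men1* were lower. Since the genotype difference was in view when the genes were chosen, these shares are printed for orientation. The standard errors given beside the genes come from the fit without the replicate number. With it as a block, they were between 0.06 and 0.08, except 0.12 for *Setd1b*, and 0.07 for *Kmt2a*.

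**Figure D3:**
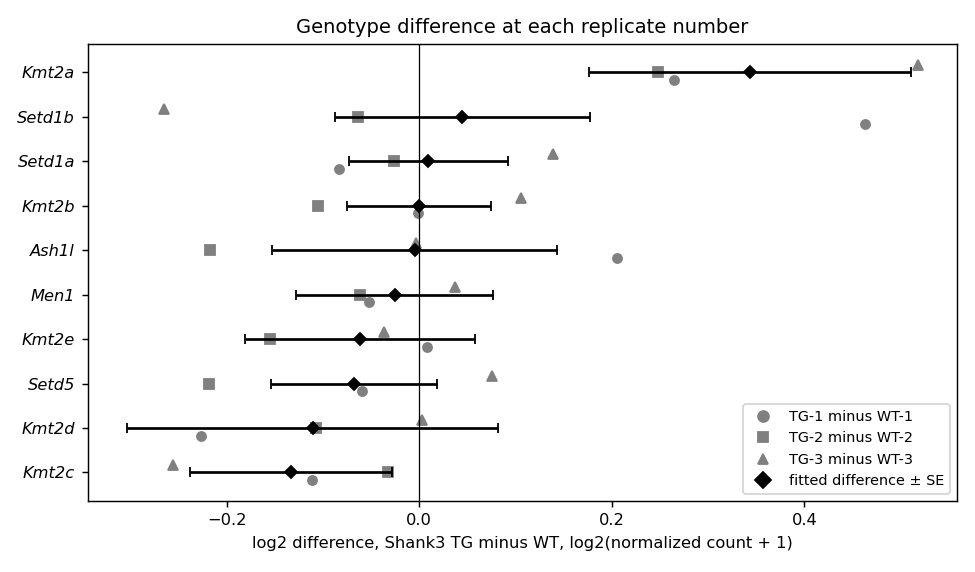
Difference in log2(normalized count + 1), *Shank3* TG minus WT (x axis), for each gene (y axis), as the value of each pair of libraries with the same number (grey symbols) and the fitted difference ± 1 standard error (black diamond, n = 3 libraries a genotype). For *Kmt2a* all pairs lie right of 0, at 0.26, 0.25 and 0.52, for *Kmt2c* all lie left of 0, and *Setd1b* spans the widest range, from -0.27 to 0.46.

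The oligodendrocyte markers had lower values in *Shank3* TG. All 7 oligodendrocyte markers had a log2 difference below 0, with an unadjusted p-value under 0.05 in limma for 6 of them without the block, against 2.01% of all tested genes, and for 7 with it, against 4.98%. After adjustment the number was 0 in both fits. They summed to between 74550 and 97009 normalized counts in *Shank3* TG and between 111225 and 113332 in WT, and none was at 0 in any library. The 6 choroid plexus markers, of which 4 had a log2 difference above 0 and 2 below, had overlapping sums of 146 to 558 in *Shank3* TG and 93 to 167 in WT. One of them, *Ttr*, had an unadjusted p-value under 0.05 in limma with and without the block, at a log2 difference of 2.42. *Ttr* stood at 127, 22.9 and 445 in TG-1, TG-2 and TG-3, against 14.3, 12.6 and 41.7 in WT-1, WT-2 and WT-3. It was higher in *Shank3* TG in each pair, though WT-3 was above TG-2. Of the 16714 tested genes, 1933 were higher in each pair, *Kmt2a* among them. The 8 olfactory bulb and striatal markers, 5 above 0 and 3 below, summed to 3917 in TG-2 and to between 2801 and 2835 in the other libraries, and *Calb2* stood at 911 in TG-2 and at 227 to 247 elsewhere. The part of these cells in the values of the 10 genes was not tested.

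The fitted difference of the libraries numbered 3 from the others was larger in size than the genotype difference for 9 of the 10 genes, all but *Setd1b*. TG-3 and WT-3 lay both outside the range of the other 4 libraries for 6 of the 10, against 40.9% of all tested genes. *Kmt2a*, *Kmt2c*, *Kmt2e*, *Ash1l* and *Men1* were higher there and *Kmt2d* lower. The fitted log2 difference of library 3 from libraries 1 and 2 was 0.44 for *Kmt2a*, 0.33 for *Ash1l*, 0.29 for *Kmt2e*, 0.23 for *Men1* and 0.22 for *Kmt2c*. It was -0.52 for *Kmt2d*. *Kmt2a* differed by 0.57 in *Shank3* TG and 0.31 in WT, *Kmt2c* by 0.13 and 0.32, and *Ash1l* by 0.34 and 0.33. *Setd1b* went down in *Shank3* TG and up in WT, by -0.22 and 0.24. The median of the 10 genes was 0.15 and that of all tested genes -0.00.

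**Figure D4:**
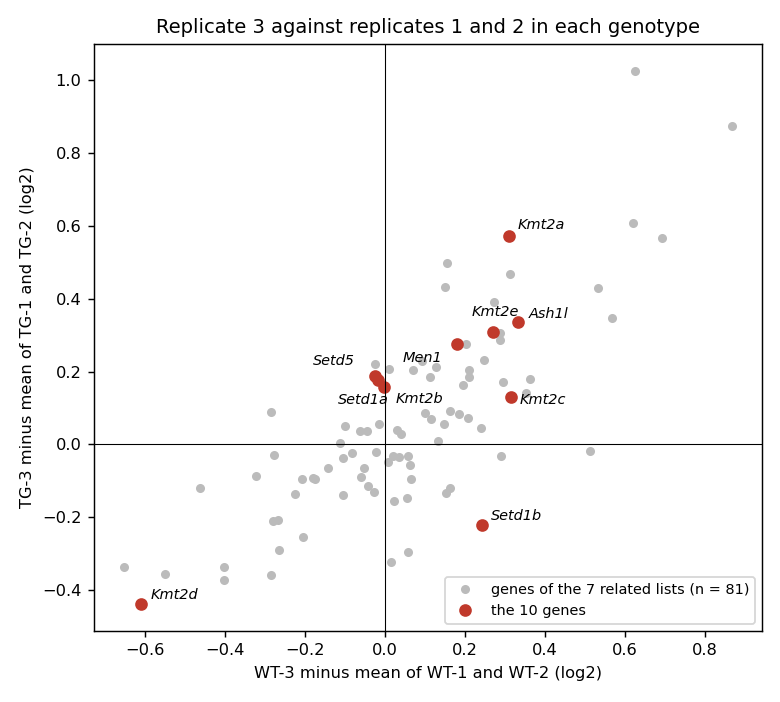
Log2 difference of TG-3 from the mean of TG-1 and TG-2 (y axis) against that of WT-3 from the mean of WT-1 and WT-2 (x axis), for the 10 genes (red) and 81 genes of related chromatin functions (grey). *Kmt2a*, *Ash1l*, *Kmt2e*, *Men1* and *Kmt2c* lie in the upper right, *Kmt2d* alone of the 10 lies in the lower left, and *Setd1b* lies in the lower right.

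Other values moved with the libraries numbered 3. Of the 13 mitochondrially encoded mRNAs, 11 were higher in both TG-3 and WT-3 than in the other 4 libraries and 0 lower, with sums of 2877186 and 3320638 against 2486093 to 2659626. Of the 6 cortical excitatory neuron markers 4 were higher, with sums of 180916 to 187618 against 155445 to 172097. Of the 6 microglia markers 4 were lower, with sums of 7817 to 8218 against 8906 to 10509. Of the 6 astrocyte markers 1 was higher and 3 lower. Endothelial and inhibitory neuron markers had 1 higher and 2 lower of 6 each. Of the 8 olfactory bulb and striatal markers 1 was higher and 1 lower. Choroid plexus markers had 1 higher of 6, and oligodendrocyte markers 0 of 7 outside. Over all tested genes, 40.9% lay outside the range of the other 4 libraries in either direction. In 5 bins of all tested genes by transcript length or by GC content, the median difference of library 3 lay between -0.06 and 0.06 in either genotype. The GC content of the 5 genes that were higher ran from 45.4% in *Ash1l* to 57.0% in *Men1*, and that of *Kmt2d* was 58.4%. *Kmt2b* with 59.1% and *Setd1b* with 59.0% were not outside the range, at fitted differences of library 3 of 0.08 and 0.01. The part of these values in the levels of the 10 genes was not tested.

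The partners and counterparts of the 10 genes were compared in the same way. In 7 lists of related chromatin genes, chosen by function, 24 of 81 tested genes had a log2 difference above 0 and 57 below. Their median was -0.03, and that of all tested genes -0.00. The differences ran from -0.25 for *Kdm5a* to 0.15 for *Ep400* with all 6 libraries, against 0.34 for *Kmt2a*. In the pairs numbered 1 and 2, *Kdm5a* had -0.43 and -0.35 and *Kmt2a* 0.26 and 0.25. An unadjusted p-value under 0.05 in limma was found for 0 of the 81 (2.01% of all tested genes) and an adjusted one for 0 (0%), and with the block for 3, of which *Ep400* was higher and *Kdm5a* and *Ncor1* lower (4.98%). These 3 are named after their values were seen, and with the block 0 of the 81 had an adjusted p-value under 0.05. In 5 bins of all tested genes by GC content, the median genotype difference ran from -0.03 in the lowest bin to 0.02 in the highest. The part of GC content in the medians of the lists was not tested.

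The shared core of the COMPASS complexes had the lowest median of the lists with all 6 libraries, but not without WT-1 (-0.046) or without TG-3 (-0.066). All 4 core subunits had a log2 difference below 0, with a median of -0.10 and 0 of 4 with an unadjusted p-value under 0.05. *Ash2l*, which stimulates the enzyme in the core, stood at 858, 831 and 807 normalized counts across the *Shank3* TG libraries, against 1027, 878 and 861 in the WT libraries. The highest *Shank3* TG library was just below the lowest WT library, so the genotypes did not overlap, and the log2 difference was -0.14 with a standard error of 0.09. *Dpy30*, the smallest core subunit, stood at 347, 352 and 368 normalized counts across the *Shank3* TG libraries, against 364, 389 and 435 in the WT libraries, with TG-3 above WT-1. *Ash2l* and *Dpy30* were lower in *Shank3* TG in each of the 3 pairs, and *Rbbp5* was not. Among all tested genes, 24.8% moved the same way in all 3 pairs. Of the 10 tested subunits found in some COMPASS complexes and outside the shared core, 4 had a log2 difference above 0 and 6 below. *Kdm6a*, the H3K27 demethylase in the Kmt2c and Kmt2d complexes, stood at 767, 809 and 769 normalized counts across the *Shank3* TG libraries, against 829, 816 and 843 in the WT libraries. All WT libraries were above all *Shank3* TG libraries, at a log2 difference of -0.09 with a standard error of 0.08. *Ash2l* and *Kdm6a* were the only 2 of the 81 genes in the 7 lists whose genotypes did not overlap. Among all tested genes the share was 6.02%. *Psip1*, which helps to bring menin and Kmt2a to chromatin, stood at 6096, 6472 and 7121 normalized counts across the *Shank3* TG libraries, against 5625, 7262 and 8221 in the WT libraries, and the genotypes overlapped.

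Of the 6 H3K4 demethylases, which remove the mark, 1 had a log2 difference above 0 and 5 below, with a median of -0.04 that ran from -0.080 without TG-2 to 0.012 without WT-2. *Kdm5a*, which removes methyl groups from trimethylated H3K4, stood at 1051, 1061 and 2152 normalized counts across the *Shank3* TG libraries, against 1412, 1352 and 2132 in the WT libraries. TG-1 and TG-2 were below WT-1 and WT-2, whereas TG-3 and WT-3 were nearly equal and above all others, and the log2 difference was -0.25 with a standard error of 0.30. Of the 6 genes for H3K36 methyltransferases and partners of Ash1l, 1 had a log2 difference above 0 and 5 below, with a median of -0.03 that ran from -0.073 without TG-3 to 0.0031 without WT-2. *Morf4l1*, whose protein activates Ash1l, stood at 9672, 9464 and 14175 normalized counts across the *Shank3* TG libraries, against 9190, 9742 and 15289 in the WT libraries. TG-3 and WT-3 were far above the other libraries, and the genotype difference was -0.03 with a standard error of 0.22.

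Among the enzymes of other histone marks, 10 of the 14 methyltransferases of H3K9, H3K27, H3K79 and H4K20 had a log2 difference below 0, with a median of -0.08 (-0.043 without WT-2), and 10 of the 11 demethylases of H3K9, H3K27 and H3K36, with a median of -0.02 that ran from -0.053 without TG-2 to 0.012 without TG-3. *Ehmt1*, an H3K9 methyltransferase, stood at 976, 896 and 860 normalized counts across the *Shank3* TG libraries, against 1272, 1027 and 829 in the WT libraries, with WT-3 the lowest library. Of 30 other large chromatin regulators, 13 had a log2 difference above 0 and 17 below, with a median of -0.02 that ran from -0.061 without TG-3 to 0.027 without TG-1. *Chd3* and *Chd5*, the remodelers of neuronal NuRD complexes, were the most abundant of them, with log2 differences of 0.07 and 0.08. Both TG-3 and WT-3 lay above the other 4 libraries for 14 of these 30 genes and below them for 3, where 40.9% of all tested genes lay outside in either direction.

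**Figure D5:**
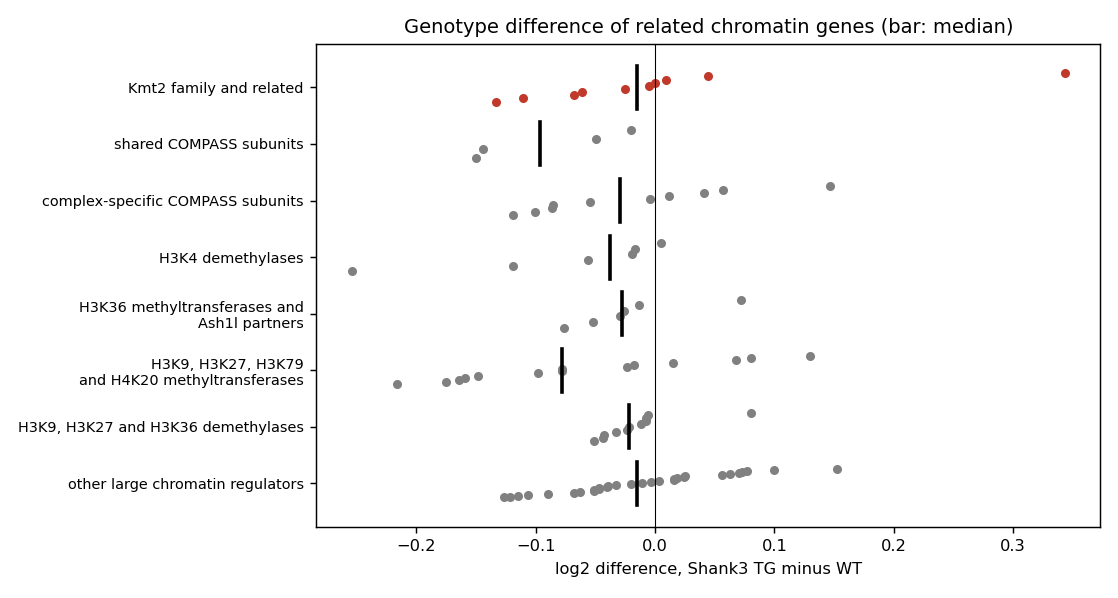
Log2 difference, *Shank3* TG minus WT (x axis), of the 10 genes (red) and of each gene in 7 lists of related chromatin genes (grey, 81 genes), with a black bar at the median of each list (y axis). With all 6 libraries, *Kmt2a* at 0.34 lies right of all other points, and the medians of the lists lie between -0.10 and -0.02.

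The genes most like the group were sought by Pearson's r over the 6 libraries, on the log2 scale, with the mean standardized profile of the 10 genes. That profile was -0.43, -0.50 and 0.77 in the *Shank3* TG libraries, by number, and -0.52, 0.19 and 0.50 in the WT libraries, highest in the libraries numbered 3. The 5 genes with the highest r were *Sos2* with 0.998, *Mettl27* with 0.997, *Atg5* with 0.989, *Ggct* with 0.988 and *Dscam* with 0.987, and 2.80% of the tested genes had an r above 0.9. *Sos2*, a Ras exchange factor, stood at 1182, 1171 and 1374 normalized counts across the *Shank3* TG libraries, against 1161, 1289 and 1331 in the WT libraries. Its genotypes overlapped, with a log2 difference of -0.02. For *Kmt2a* alone the closest were *Smim8* with 0.990, *Myo1c* with 0.985 and *Epsti1* with 0.981, and 1.02% of the tested genes had an r above 0.9. *Smim8* stood at 225, 212 and 279 normalized counts across the *Shank3* TG libraries, against 203, 198 and 230 in the WT libraries, with each *Shank3* TG library above the WT library of its number. These r values rest on 6 libraries that share the difference of replicate number 3, and are given as a description.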

How the data were processed

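Stranded mRNA libraries of pooled mPFC were quantified by the authors with Salmon 0.9.1 on GRCm38 with GC bias correction, summed to genes with tximport and normalized in DESeq2 1.19.11 (R 3.6.0). The deposited signal values are these normalized counts, gene by library. The annotation release and the strand setting are not given in the sources used here. The values are not whole multiples of 1 read (at most 23.2% of values between 0 and 20 lay within 0.02 of a multiple), so read depth was not recovered and no counting interval was given. Gene names and positions came from GENCODE M21, which held 18231 of the 18254 identifiers.

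The members and lists were chosen with earlier results of these data known. Genes whose mean over the libraries reached 5 normalized counts were compared as log2(normalized count + 1) with limma 3.58.1 in R 4.3.3 (lmFit with genotype alone, eBayes with a trend, two-sided, Benjamini-Hochberg adjustment, threshold 0.05), which was tested on simulated data. P-values measure the spread between pools. The numbers were taken to pair the samples. Same-numbered libraries deviated together from their genotype means (r across genes 0.302, 0.332 and 0.616), but TG-2 with WT-1 (0.227) and TG-1 with WT-2 (0.266) were nearly as close. Deviations from a genotype mean cancel out within the genotype. A shift shared by TG-3 and WT-3 thus by itself makes libraries 1 and 2 of both genotypes deviate together. The r values of numbers 1 and 2 therefore cannot tell whether these libraries are pairs. Combinations of number 3 with another number lay between -0.443 and -0.389. Named were the 10 genes and, in each list, up to 4 by smallest unadjusted p-value or abundance. The alternatives tried were a pseudocount of 0.1 or 5, a required mean of 50 or no filter at all, upper-quartile scaling, quantile normalization, the replicate block, a term for replicate number 3, each library left out and, added after the data had been seen, replicate numbers 1 and 2 alone. Python 3.11.15 made the summaries.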

Additional observations from a re-analysis of the deposited data

How the results depend on the processing

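Under the replicate block, the number of genes whose adjusted p-value in limma was under 0.05 went from 0 to 1 (*Shank3*, adjusted p = 0.000437), and those with an unadjusted p-value under 0.05 from 336 to 833. The term for replicate number 3 gave 1 and 717, replicate numbers 1 and 2 alone gave 1 and 468, and leaving out 1 library gave 0 to 1 (1 without WT-3) and 219 (without TG-1) to 417. The block changed the call of no other gene after adjustment. The term for replicate number 3 was past the threshold for 2344 genes and, with 1 library left out, for 222 (without WT-3) to 2554, with 507 without TG-3 and 1401 without TG-1. Of the 10 genes, 4 were higher in *Shank3* TG, 2 with replicate numbers 1 and 2 alone, and 1 (without WT-1) to 6 with 1 library left out. Their median log2 difference of -0.02 ran from -0.08 to 0.02 over all 15 alternatives, each within the spread between libraries (0.0887) of the value with all 6. With 1 library left out, list medians ran from -0.13 to -0.046 (without WT-1) for the shared COMPASS subunits, from -0.073 (without TG-3) to 0.0031 for H3K36 methyltransferases and Ash1l partners, and from -0.089 to -0.043 (without WT-2) for the methyltransferases of H3K9, H3K27, H3K79 and H4K20. The median turned from below to above 0 for 4 of the 7 lists with 1 library left out, namely the H3K36 list (without WT-2), the H3K4 demethylases (without TG-3 or WT-2), the H3K9, H3K27 and H3K36 demethylases (without TG-3) and the other large chromatin regulators (without TG-1 or WT-3). It ran from -0.042 to -0.013 for the COMPASS subunits outside the shared core. *Kmt2a* stayed above 0 (0.15 without TG-3) and *Kmt2c* (-0.03 without WT-3) and *Setd5* (-0.02 without WT-2) below 0 under all 15 alternatives. The cause of these shifts was not tested. With 3 pools a genotype and no read numbers, the precision rests on the spread between pools, which is narrower for most of the 10 genes once the replicate block is in the fit.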
